A study of Zea mays with 4 samples.

Results

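Glutathione transferase (GST) genes were followed with 35 probe sets, of 17555 maize probe sets on an Affymetrix maize array. Members were all probe sets whose gene carries a name made of gst and a number, in the array's annotation or among the symbols and synonyms of that gene in RefSeq. They stand for 31 genes, of which 29 have 1 probe set each, gst13 has 2 and gst31 has 4, so probe sets of those genes are not independent of each other. RNA came from young stacked internodes of maize at the stage of 6 to 7 leaves, with 1 array for each of 4 samples. The 2 CCR mutant samples come from plants with lowered cinnamoyl-CoA reductase (CCR), which makes the aldehydes that lignin units are built from; each was a single extract of 144 or 182 µg RNA, with no treatment named. The 2 samples set against them are named WS, a name that the sources used here do not spell out. Each WS sample joined its own extract of 185 or 215 µg to 3 further extracts of 1 µg, and its label also names drought, for 36 h, with an REW between 20 and 30%. Genotype, pooling and recorded treatment therefore coincide and cannot be told apart, and neither the allele nor the number of plants behind an extract is given in the sources used here. Days for all plants had 16 h at 25 °C and nights 8 h at 22 °C.

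Glutathione transferases join the tripeptide glutathione to reactive or foreign compounds, and the conjugates are then moved into the vacuole by ABC transporters of the MRP type. In maize the family is large and is best known for detoxifying herbicides. Chemicals called safeners, which protect cereals from herbicides, raise the transcripts of some members, and other stresses do the same in plants generally. Some members also act as peroxidases, and the product of Bronze2, a maize GST with a name of another kind, is needed to bring anthocyanins into the vacuole.

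The values are deposited GCRMA values, taken as log2, so a difference of 1 is a factor of 2 in signal. The brighter of the 2 CCR genes, cncr1, had log2 values of 8.59 and 9.14 in the CCR mutant against 10.99 and 10.13 in WS, so the difference was -1.70 and, with limma, missed the threshold of 0.05 (SE 0.38, adjusted p = 0.68). Markers of secondary wall were above background in 4 of 4 genes, with log2 values of 9.68 to 10.58 in the CCR mutant and 9.87 to 10.82 in WS. The meristem gene KN-1 was at 8.35 to 8.49 in the CCR mutant and 8.38 to 9.04 in WS, and 6 of 6 leaf photosynthesis genes were at 10.34 to 13.19 in the CCR mutant and 10.04 to 13.10 in WS. Zein genes of the endosperm were at background in 5 of 6 cases. The floral markers si1 and sts1 were at 7.38 to 8.32 in the CCR mutant and at 4.24 to 5.28 in WS. Their differences of 3.06 (SE 0.33) and 2.99 (SE 0.23) also missed the threshold with limma (adjusted p = 0.27 and 0.14). The part of these cell types in the GST values was not tested. In such bulk samples, fewer cells of a type and less RNA per cell cannot be told apart. The labels do not say whether replicates were separate plants, and the p-values cover only how far these 4 samples vary, a spread that could be technical.

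The first question was which GST genes gave a signal in the internode. A probe set was counted as expressed, and tested, if 2 or more of the 4 arrays had a log2 value of 4 or above; of 66 reporter probe sets, made for genes that maize lacks, 65 stayed at or below 3.43 on every array. By this rule 19 of the 35 probe sets were expressed, for 18 of the 31 genes, and 18 of the 19 reached the level on all 4 arrays. The exception was GST26. With a level of 6 in place of 4, 17 probe sets remained above it, without GST26 and GST39. The expressed genes were gst1, gst2, GST3, gst5, gst9, gst10, gst11, gst12, gst13, gst14, gst16, gst17, gst19, GST26, gst37, GST38, GST39 and gst41.

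**Figure D1:**
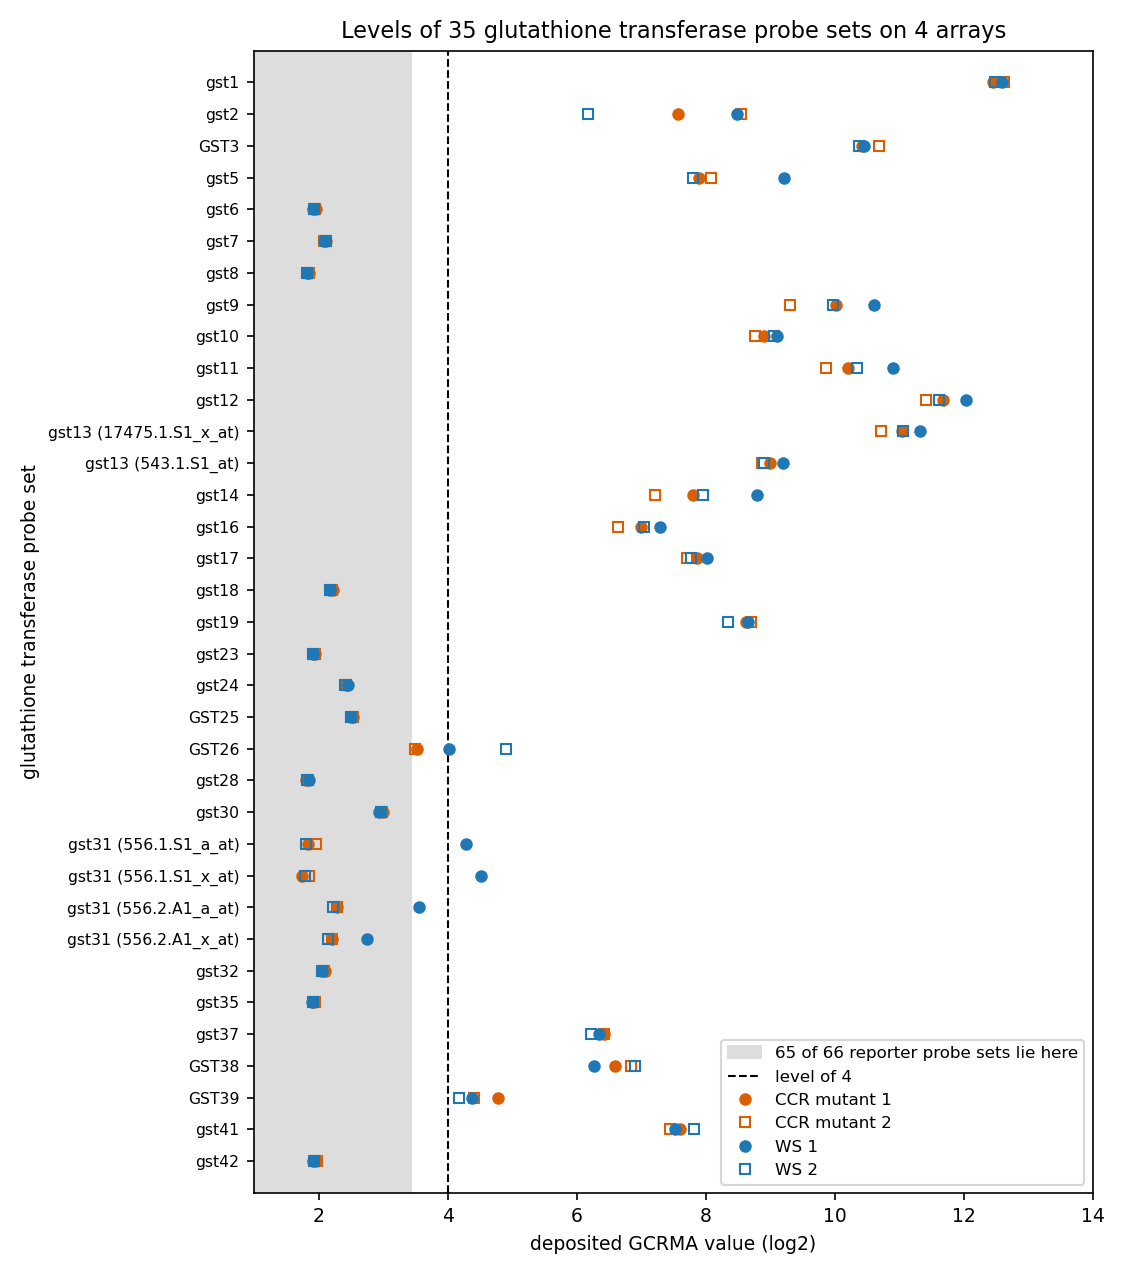
Deposited GCRMA value (log2, horizontal axis) of each of the 35 glutathione transferase probe sets (rows, by gene number) on the CCR mutant arrays (orange) and the WS arrays (blue); filled circles are replicate 1 and open squares replicate 2. The dashed line is the level of 4 and the grey band ends at 3.43, the highest value of 65 of the 66 reporter probe sets; 19 probe sets reach 4 on at least 2 arrays, and of the 4 of gst31, 3 lie beyond the grey band, on WS replicate 1 alone.

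The other 16 probe sets, for 13 genes, were not expressed by the rule. Apart from gst31, these were 12 probe sets with values between 1.81 and 3.0 on every array, and none of them varied by more than 0.07 over the 4 arrays. They were gst6, gst7, gst8, gst18, gst23, gst24, GST25, gst28, gst30, gst32, gst35 and gst42. Among them gst23, known from maize for its association with resistance to several leaf diseases, was at 1.94 on both CCR mutant arrays and 1.92 on both WS arrays. A value at background says only that no signal was seen on this array, and such values have no order.

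The gene gst31 differed from these on a single array. Its 4 probe sets had values of 4.29, 4.52, 3.55 and 2.75 in WS replicate 1, the highest array for each. On the other 3 arrays they lay between 1.74 and 2.28, the level of the reporter probe sets, and the lowest of the 4 values on WS replicate 1 was also below 3.43. Since 2 of the 4 reached 4 there and none reached it elsewhere, gst31 failed the rule and has no test.

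Enzymes long known for conjugating herbicides are encoded by gst1, GST3 and gst2. The gene gst1 (LOC542366) encodes the GST I subunit, which conjugates chloroacetanilide herbicides. It had log2 values of 12.45 and 12.63 in the CCR mutant against 12.60 and 12.49 in WS. The groups overlapped, and the difference was -0.005 (95% confidence interval -0.31 to 0.30), with a sign that turned when the arrays were centred on their medians (0.035).

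GST3 (LOC541990), which encodes GST III, an enzyme of the same phi class, had 10.42 and 10.68 in the CCR mutant against 10.46 and 10.37 in WS. The groups overlapped here too, with a difference of 0.14 (SE 0.12, interval -0.22 to 0.49) that was 0.005 without CCR mutant replicate 2. For both genes the intervals leave out a change by a factor of 2 in either direction.

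The gene gst2 (LOC542311, also listed as GSTIV) encodes the subunit known in maize for its induction by safeners. It had 7.58 and 8.55 in the CCR mutant against 8.48 and 6.18 in WS. WS replicate 2 was the lowest array, 2.30 below WS replicate 1, and the CCR mutant arrays differed by 0.97. The difference of 0.73 (SE 0.92, interval -1.90 to 3.37) was therefore smaller than the spread between replicates, and leaving out WS replicate 1 or WS replicate 2 gave 1.88 or -0.42. RefSeq lists the synonym gst4 for GST3 and GST4 for gst2, so a reader who looks for that name may find either gene.

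The second question was whether expressed members differed between the CCR mutant and WS. Of the 19 tested probe sets, 0 passed with limma over all 11085 tested probe sets (Benjamini-Hochberg adjusted p under 0.05), where 0.153% of all tested probe sets passed. At an unadjusted p under 0.05 the count was also 0, against 6.43% of all tested. The adjusted p-values of the members were between 0.774 and 0.991. The 95% interval of every tested member included 0.

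Values were lower in the CCR mutant for 13 of the 19 and higher for 6, with a median difference of -0.15. Over all tested probe sets 61.9% were lower and 36.7% higher, and the median was -0.05. Both CCR mutant arrays lay below both WS arrays for 6 members (background 23.5%) and above them for 2 (background 13.0%), shares of 31.6% and 10.5%. GST26, which reached the level of 4 in WS only, is in these counts; over the other 18 members 12 were lower, 5 without overlap, and the median was -0.13. Differences larger than 0.5 were seen in 5 members on the lower side (background 2.45%) and in 1 on the higher side, gst2 (background 3.04%). GST26 is again among the 5, and 4 of the other 18 members were lower by more than 0.5. The count of 5 depended on which arrays were kept. Without WS replicate 1 none of 18 tested members was lower by more than 0.5 (background 4.61%). Without WS replicate 2 the number was 4 of 18 (background 3.68%), and GST26 was not tested in either case. Without CCR mutant replicate 2 the number was 3 (background 3.23%), and without CCR mutant replicate 1 it was 5 (background 4.32%). In the latter case gst16 (-0.525) took the place of gst5 (-0.425). The number was 4 with values below 4 set to 4 (background 2.35%), where GST26 left the count. With arrays centred on their medians it was 3 (background 1.9%), where GST26 was not tested and gst5 stood at -0.475. With quantile normalization repeated it was 4 (background 2.12%), where gst5 stood at -0.478. Replicates of the members also stood further apart in the median. The median size of the difference between replicates was 0.25 in the CCR mutant and 0.30 in WS for the members, against 0.12 and 0.14 for all tested probe sets. Leaving out WS replicate 1 gave a median over the members of -0.035, and leaving out WS replicate 2 gave -0.27.

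**Figure D2:**
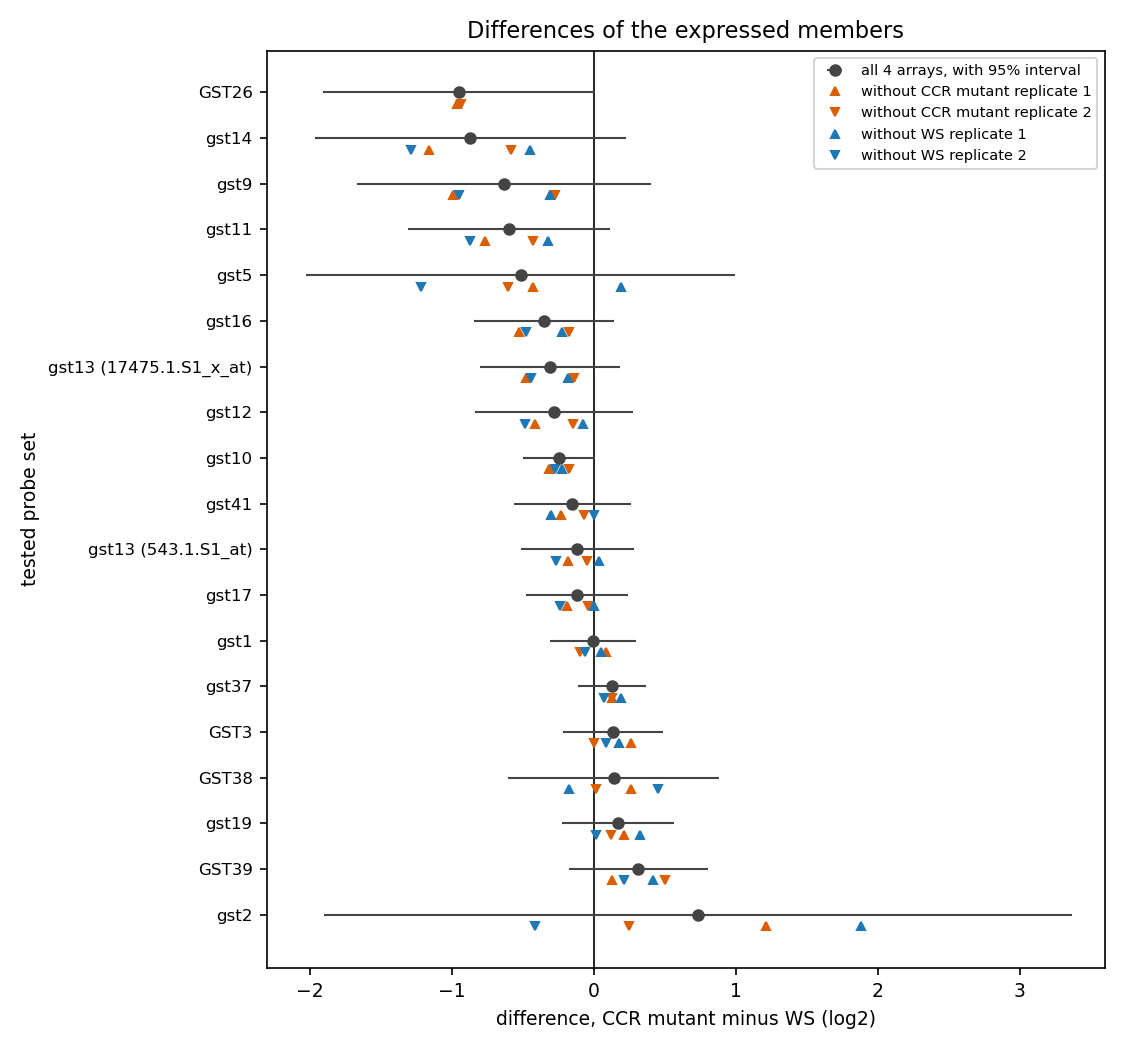
Difference between CCR mutant and WS (log2, horizontal axis) for each of the 19 tested probe sets, with the 95% confidence interval from limma (grey) and, below it, the difference with each single array left out (triangles). All 19 intervals include 0, and gst2 takes the other sign without WS replicate 2, as gst5 does without WS replicate 1.

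The 5 members with lower values by more than 0.5 were GST26, gst14, gst9, gst11 and gst5. GST26 had 3.53 and 3.50 in the CCR mutant against 4.02 and 4.91 in WS. Both CCR mutant arrays lay just above the reporter level and both WS arrays at or above 4, without overlap. The difference was -0.95 (SE 0.33, interval -1.91 to 0.01, limma adjusted p = 0.774). Since neither CCR mutant array reached 4, the gene was tested through its WS arrays alone, and with values below 4 set to 4 the difference was -0.465. With either WS array left out the gene no longer reached the level on 2 arrays and was not tested.

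For gst14 (LOC541832) the values were 7.80 and 7.22 in the CCR mutant and 8.80 and 7.96 in WS. The groups did not overlap, but CCR mutant replicate 1 lay only 0.16 below WS replicate 2. Its difference of -0.87 (SE 0.38, interval -1.96 to 0.22, limma adjusted p = 0.789) moved to -0.45 when WS replicate 1 was left out, to -1.29 for WS replicate 2 and to -0.58 for CCR mutant replicate 2.

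The gene gst11 (LOC541829) had 10.20 and 9.86 in the CCR mutant against 10.90 and 10.35 in WS, again without overlap. Its difference was -0.60 (SE 0.25, interval -1.31 to 0.12), and -0.32 without WS replicate 1. The gene gst9 (LOC542629) had 10.02 and 9.30 in the CCR mutant against 10.61 and 9.97 in WS. There CCR mutant replicate 1 lay above WS replicate 2, and the difference of -0.63 (SE 0.36, interval -1.66 to 0.40) was -0.27 without CCR mutant replicate 2 and -0.31 without WS replicate 1.

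The gene gst5 was set apart by 1 array alone. It had 7.90 and 8.08 in the CCR mutant against 9.21 and 7.80 in WS, with WS replicate 1 above the other 3 arrays. The difference of -0.52 (SE 0.53) took the other sign, at 0.19, without that array.

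The remaining members with lower values differed by less, and most of these differences moved by over 1.5 times when 1 array was left out. The gene gst16 had 6.99 and 6.64 in the CCR mutant against 7.29 and 7.04 in WS (difference -0.35, SE 0.17, and -0.175 without CCR mutant replicate 2). The gene gst10 had 8.91 and 8.77 in the CCR mutant against 9.11 and 9.06 in WS, a small difference of -0.24 (SE 0.09, interval -0.50 to 0.01) that was large against its spread and had the second smallest p of the members, after GST26. In both genes the groups did not overlap.

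For gst12 the values were 11.68 and 11.41 in the CCR mutant against 12.03 and 11.62 in WS (difference -0.28, SE 0.19, and -0.075 without WS replicate 1). The probe sets of gst13 had 11.05 and 10.71 in the CCR mutant against 11.32 and 11.06 in WS on the first, and 9.0 and 8.87 in the CCR mutant against 9.20 and 8.90 in WS on the second. Their differences of -0.31 (SE 0.17) and -0.12 (SE 0.14) had the same sign, though the groups overlapped on the second, and the first was -0.14 without CCR mutant replicate 2. The name of the first ends in _x_at, which marks probes that may also bind other sequences.

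Of the last pair, gst17 had 7.86 and 7.71 in the CCR mutant against 8.02 and 7.78 in WS (difference -0.12, SE 0.13). The values of gst41 were 7.60 and 7.44 in the CCR mutant against 7.52 and 7.82 in WS (difference -0.15, SE 0.14, and 0 without WS replicate 2). The groups overlapped for both genes.

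Higher values in the CCR mutant were small apart from gst2. GST39 had 4.78 and 4.41 in the CCR mutant against 4.38 and 4.18 in WS, near the level of 4 on all arrays (difference 0.32, SE 0.17, and 0.13 without CCR mutant replicate 1). The gene gst37 had 6.42 on both CCR mutant arrays against 6.35 and 6.23 in WS (difference 0.13, SE 0.08). These were the 2 members whose CCR mutant arrays both lay above WS.

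GST38 and gst19 had overlapping groups. GST38 had 6.60 and 6.85 in the CCR mutant against 6.27 and 6.90 in WS (difference 0.14, SE 0.26), and -0.17 without WS replicate 1. For gst19 the values were 8.62 and 8.71 in the CCR mutant against 8.65 and 8.34 in WS (difference 0.17, SE 0.14, and 0.015 without WS replicate 2).

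Many of the lower members shared an order of the single arrays. In 9 of the 19 tested probe sets, for 8 genes, CCR mutant replicate 2 was the lowest array and WS replicate 1 the highest; 12.4% of all tested probe sets had that order. The 8 genes were gst9, gst10, gst11, gst12, gst13, gst14, gst16 and gst17. WS replicate 1 was the highest array in 10 of the 19, gst5 being the tenth, against 33.4% of all tested probe sets. WS replicate 1 lay above WS replicate 2 in 16 of the 19, with a median gap of 0.25, against 52.1% of all tested probe sets and a median gap over them of 0.01. CCR mutant replicate 1 lay above CCR mutant replicate 2 in 12 of the 19, with a median gap of 0.14, against 50.3% of all tested probe sets and a median gap near 0. In gst9 the arrays stood apart by 0.72 within the CCR mutant and 0.64 within WS, beside a difference of -0.63 between the groups. In gst10 the gaps were smaller than the difference, at 0.14 within the CCR mutant and 0.05 within WS beside -0.24. The order was noticed in these data and has no test.

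**Figure D3:**
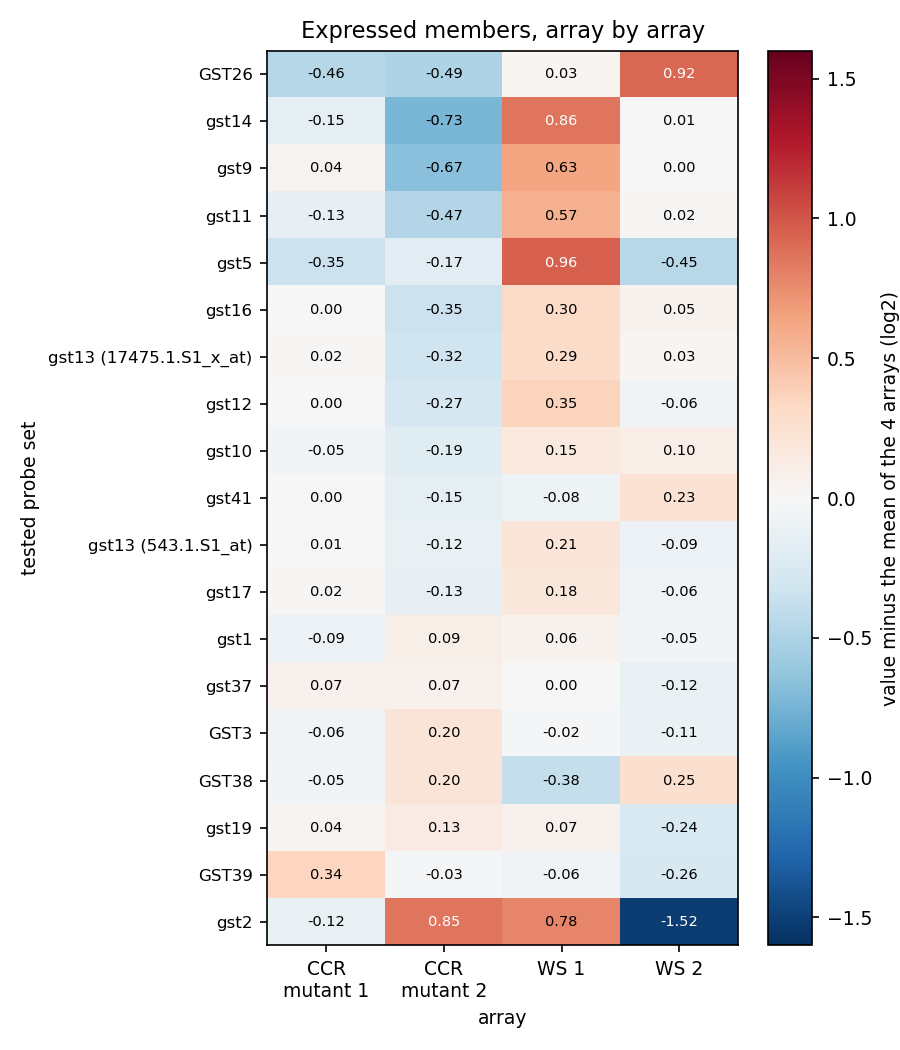
Value of each tested probe set on each array minus its own mean over the 4 arrays (log2, colour scale and printed number), with probe sets in rows from the lowest to the highest difference between CCR mutant and WS. WS replicate 1 is the highest array and CCR mutant replicate 2 the lowest in 9 of the 19 rows, and gst2 has the widest spread, with WS replicate 2 at -1.52.

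Several members lie side by side in the genome. In the gene order of RefSeq (Zm-B73-REFERENCE-NAM-5.0), counting protein-coding genes, 8 pairs of members are direct neighbours, and 14 members belong to such pairs. Both neighbours were expressed in 4 pairs (gst11 with gst12, gst13 with gst9, gst37 with GST39, and GST39 with GST38). In 3 pairs neither was expressed (gst42 with gst32, gst28 with gst7, and GST25 with gst35). The pair of GST38 with gst30 was mixed. The gene gst10 follows gst12 with 1 gene between them. The 5 genes gst10, gst11, gst12, gst9 and gst13, which form 2 such neighbourhoods, were among the 8 genes that shared the order of arrays. In contrast, the expressed run of gst37, GST39 and GST38 had higher values in the CCR mutant, GST38 only while WS replicate 1 was kept. Neighbouring copies can be similar in sequence, and how far their probes bind each other's transcripts was not tested.

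Genes of glutathione and sulfur metabolism, conjugate export, thioredoxins, other detoxification and anthocyanins were set beside the family as 7 lists. Of their 27 genes on the array, 19 were tested, and 0 passed with limma in either direction (background 0.153%), nor did any have an unadjusted p under 0.05. Of the 19, 11 were higher and 8 lower in the CCR mutant, with a median difference of 0.02, against -0.05 over all tested probe sets. Both CCR mutant arrays lay above both WS arrays in 3 of the 19, sat1, rf2b and a2 (background 13.0%). They lay below both WS arrays in 1, gsh1 (background 23.5%). The order with WS replicate 1 highest and CCR mutant replicate 2 lowest was seen in 1 of the 19, the thioredoxin gene trxh1.

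Glutathione itself is made by gamma-glutamylcysteine synthetase (gsh1) and glutathione synthetase (gsh2) and kept reduced by glutathione reductase (gsr1). The gene gsh1 had 8.62 on both CCR mutant arrays against 8.82 and 8.74 in WS, without overlap (difference -0.16, SE 0.08, limma adjusted p = 0.799). The differences of gsh2 and gsr1 were 0.09 (SE 0.12) and 0.06 (SE 0.09), so that the list had a median of 0.06 over 3 genes. The ascorbate peroxidase gene apx2, of the ascorbate-glutathione cycle, differed by -0.14 (SE 0.13).

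Sulfur assimilation supplies the cysteine in glutathione. Of 5 tested genes there, 3 were higher and 2 lower, with a median of 0.01. The serine acetyltransferase gene sat1 had 6.99 and 6.40 in the CCR mutant against 6.38 and 5.34 in WS. The groups did not overlap, though CCR mutant replicate 2 and WS replicate 1 were 0.02 apart, and the difference was 0.84 (SE 0.44, limma adjusted p = 0.801), at 0.32 when WS replicate 2 was left out. The differences of aprl1 and aprl3, named as APS reductase-like, were -0.10 (SE 0.12) and 0.02 (SE 0.16).

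Of the MRP transporters, ZmMRP4, known in maize seed for its part in phytic acid storage, differed by -0.19 (SE 0.19) and mrpa1 by -0.16 (SE 0.23), while ZmMRP2 was not tested. The 3 thioredoxin genes had a median of -0.03, with trxh1 at -0.08 (SE 0.09), trm1 at 0.06 (SE 0.10) and trxh2 at -0.03 (SE 0.14); that median ran between -0.13 and 0.13 with single arrays left out. Among other detoxification genes 4 of 6 were tested, all with higher values on their brightest probe set. Their median of 0.07 was 0.24 without WS replicate 1 and took the other sign, at -0.015, when WS replicate 2 was dropped instead. The aldehyde dehydrogenase gene rf2b had 5.09 and 4.95 in the CCR mutant against 4.93 and 4.32 in WS, a difference of 0.40 (SE 0.24) that was 0.09 when WS replicate 2 was left out. The glyoxalase gene glx1 and the aldehyde dehydrogenase gene rf2 differed by 0.07 (SE 0.10) and 0.08 (SE 0.21). Other tested probe sets of glx1 gave 0.015 (SE 0.07) and, with the other sign, -0.035 (SE 0.08). The safener-induced gene In2-1, not a member because none of its names is gst and a number, was at background on every array. It had 2.15 and 2.14 in the CCR mutant against 2.21 and 2.13 in WS. Of 5 genes on the anthocyanin list only a2, an enzyme late in the pathway, was expressed, with a difference of 0.17 (SE 0.10). The others on that list, fht1, c1, pl1 and p1, were at background.

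**Figure D4:**
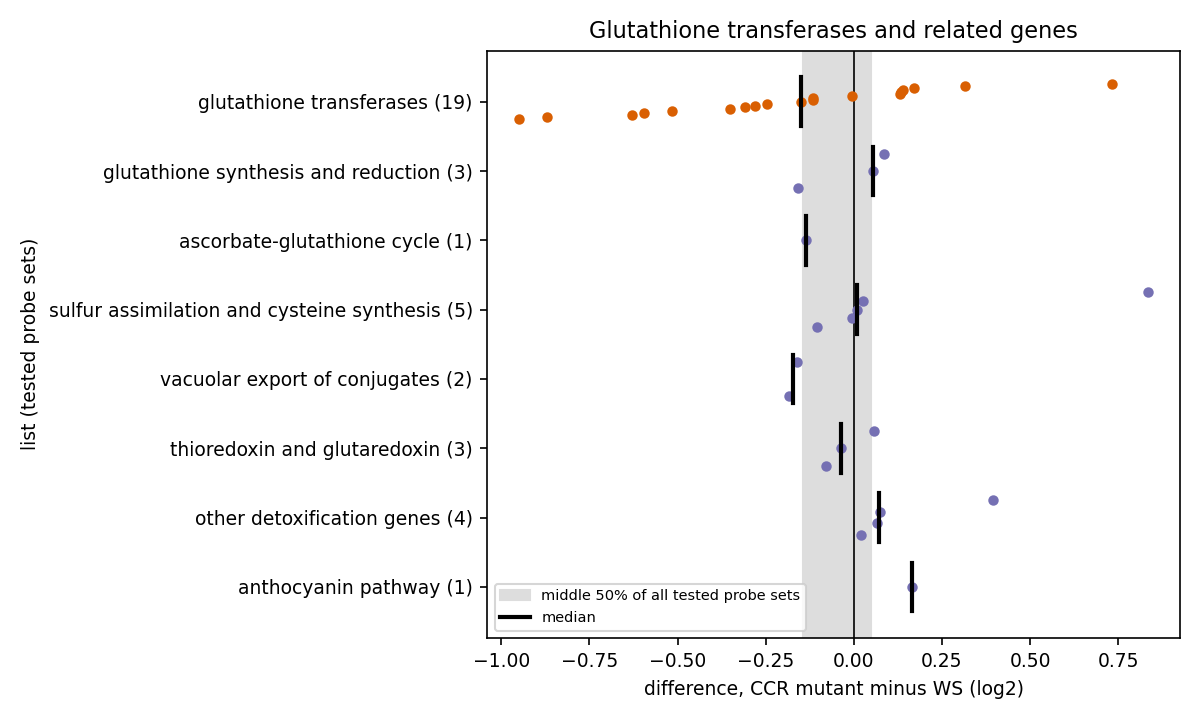
Difference between CCR mutant and WS (log2, horizontal axis) of the tested glutathione transferase probe sets (orange) and of the tested genes of 7 related lists (purple, 1 probe set per gene), with the median of each list as a black bar. The grey band holds the middle 50% of all 11085 tested probe sets; the glutathione transferases range from -0.95 to 0.73, and of the 19 related genes sat1 alone lies beyond 0.5 in either direction.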

How the data were processed

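Each of 4 RNA samples was hybridised to 1 Affymetrix maize array. The deposited values were made by the authors with GCRMA, per the submitters' processing notes, and are taken as log2 from their range of 1.12 to 14.11; the log base and the GCRMA version are not given in the sources used here. The method subtracts a background modelled on probe sequence, normalizes arrays by quantiles and draws values near background together. Of 17734 probe sets, 179 controls and reporters were left out. The rest were not normalized again. Probe sets with a log2 value of at least 4 on at least 2 arrays (11085) were fitted together with limma 3.58.1 in R 4.3.3 (2 residual degrees of freedom, prior of 1.70), two-sided, with Benjamini-Hochberg adjustment over all of them; an exact permutation test of 2 against 2 arrays cannot go below p = 0.333. The fit was tested on simulated data with added differences larger than that of any member, so that test does not cover differences of the members' size.

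Probe sets were named through the array annotation and RefSeq, by gene identifier; 31 of 31 member genes were found there, among 32 genes so named. Members and lists were chosen with earlier results of these data known. Lists used symbols, with genes of hormone metabolism left out, and the probe set of highest mean for each gene. Every member is accounted for, and up to 3 tested genes of a list were named by smallest p; In2-1, ZmMRP2 and genes at background were named after their values were seen. Precision is limited by the number of arrays. Alternatives were other filters, variance models and normalizations, a replicate block, values below 4 set to 4, leaving out _s_at and _x_at probe sets, and leaving out each array.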

Additional observations from a re-analysis of the deposited data

How the results depend on the processing

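None of the 19 tested members passed with limma under any alternative, and 0.468 was their smallest adjusted p in any of them. Adjusted p-values of the 16 members that enter only without the filter were not examined. With any 1 array left out 0 probe sets passed over the whole array, against 17 with all 4, and members with higher values numbered 5 to 9, against 6. With a replicate block 0 probe sets passed as well, and no member's call changed. The labels do not say that the numbers pair the samples; the gaps between replicates 1 and 2 of the 2 groups correlated at 0.348 across probe sets. Without the filter 9 probe sets passed, 15 of the 35 members were higher and the members' median was -0.011. Of the 16 members added, 9 had both CCR mutant arrays above both WS arrays, with differences of at most 0.05. The same order, at any size, held for 85.1% of the 6470 probe sets below the level. With arrays centred on their medians gst1 stood at 0.035. With single arrays left out, differences spanned -0.095 to 0.085 for gst1, -1.22 to 0.19 for gst5, -0.265 to 0.035 for the second gst13 probe set, -0.235 to 0.005 for gst17, -0.175 to 0.455 for GST38 and -0.42 to 1.88 for gst2, and the cause was not tested. Likewise, the medians of related lists spanned -0.275 to 0.005 for the ascorbate-glutathione cycle, -0.02 to 0.115 for glutathione synthesis and reduction, -0.075 to 0.085 for sulfur assimilation, -0.305 to -0.04 for conjugate export and 0.08 to 0.25 for anthocyanins. The number of expressed members was between 17 and 19 under each alternative tried for that count, namely other levels, numbers of arrays, normalizations and probe set kinds, and leaving out each array.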
